A study of Homo sapiens with 12 samples.

Results

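The SLC1, SLC3, SLC6, SLC7, SLC36, SLC38 and SLC43 families hold the plasma membrane and lysosomal carriers that move amino acids and a few related solutes, and 59 of the 58174 gene rows of the deposited table belong to them. They were taken as every gene whose symbol starts with SLC1A, SLC3A, SLC6A, SLC7A, SLC36A, SLC38A or SLC43A and goes on with a number. Of 68 such symbols, 2 antisense genes and 6 pseudogenes were dropped, and so was SLC7A6OS, which meets the letter of the rule but is the opposite-strand neighbour of SLC7A6 and no transporter. After the filter on low counts, 39 of the 59 were tested among 20612 genes. The other 20 never exceeded 16 counts in a library, among them SLC1A6, SLC1A7, SLC36A2, SLC36A3, SLC38A4, SLC38A5, SLC38A8, SLC38A11, SLC43A3, SLC6A3, SLC6A5, SLC6A7, SLC6A18, SLC6A19, SLC6A20, SLC7A3, SLC7A4, SLC7A13 and SLC7A14.

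Sequencing covered mRNA of H520, a long-established cell line from a human squamous carcinoma of the lung, in 4 groups of 3 libraries. Control cells were set beside cells given BLU9931 at 1 µM, palbociclib at 1 µM, or both drugs at those doses (the combination), and treatment lasted 72 h. BLU9931 blocks the growth factor receptor FGFR4 irreversibly, and palbociclib blocks CDK4 and CDK6, the kinases that release cells from G1 phase. What was given to control cells, and whether a group's 3 libraries came from separate cultures, is not in the labels, so p-values may reflect only technical spread. All groups are of this single line.

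Cells take up essential amino acids mainly through exchangers and sodium-driven carriers of these families. The heterodimeric carriers pair a heavy chain, SLC3A2 (CD98), which brings the complex to the surface, with a light chain of the SLC7 family, which does the transport: SLC7A5 (LAT1) imports leucine and other large neutral amino acids in exchange for glutamine, and SLC7A11 (xCT) imports cystine in exchange for glutamate. Leucine, arginine and glutamine brought in or released from lysosomes act on the kinase complex mTORC1, and shortage of amino acids raises translation of the transcription factor ATF4, whose known targets include several of these carriers and enzymes of serine and asparagine synthesis.

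Library totals ran from 21.7 to 35.8 M counts. Control 1 and palbociclib 3 stood apart from the other 10 libraries, with scores of 67.4 and 71.6 on the second principal component, where the others lay between -32.6 and 5.38. In these 2 libraries genes rich in G and C were low relative to the mean of the library's own group. The Spearman rho of that deviation with GC content was -0.667 and -0.735 across genes, a description. SLC7A5 (61.1% GC), SLC1A5 (61.3%), SLC6A8 (62.2%) and SLC6A9 (59.6%) read low in them, so results are given with all 12 libraries and, where it matters, without these 2. Of 9 epithelial and squamous markers, 4 were high: SOX2 at 342 to 443 TPM (a transcript abundance per library scaled for gene length), and the general epithelial genes EPCAM at 405 to 757, KRT8 at 203 to 419 and KRT18 at 113 to 171. The other 5 are squamous and basal genes and were low: TP63, KRT14 and DSG3 stayed at or below 0.165 TPM in every library, KRT5 at or below 1.31 and KRT6A at or below 1.3. The summed level of 6 fibroblast markers ran from 1.45 to 5.52 TPM over the groups. That of 5 leukocyte markers ran from 0.67 to 1.14 TPM in control, from 2.32 to 3.02 with palbociclib and from 3.95 to 4.62 with the combination, with LYZ reaching 3.5 TPM and CD68 1.23 TPM, while PTPRC, the pan-leukocyte marker, stayed at or below 0.0237 TPM. The part of this shift in the results was not tested. Bulk RNA cannot tell fewer cells with a transcript from less of it per cell.

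In control cells the heterodimer of SLC7A5 and SLC3A2 led the families by TPM. SLC7A5 (ENSG00000103257, GRCh38 chromosome 16, 87830023 to 87869488, minus strand) was at 573, 1030 and 985 TPM in control libraries 1, 2 and 3. SLC3A2 (ENSG00000168003, chromosome 11, 62856102 to 62888875, plus strand) was at 642, 732 and 714 TPM. Their ranges overlap, so their order is not settled, but both stood above every other member in every control library. The glutamine exchanger SLC1A5 followed at 230 ± 64.9 TPM (SD, n = 3), then the arginine and lysine carrier SLC7A1 at 224 ± 35.0, the sodium-coupled glutamine carrier SLC38A2 at 219 ± 30.5, the creatine carrier SLC6A8 at 172 ± 37.4 and SLC38A1 at 169 ± 17.2. Within these 5 the neighbours SLC1A5, SLC7A1 and SLC38A2 did not differ beyond their spread, nor did SLC6A8 and SLC38A1. In control 27 members had a mean of at least 1 TPM, 18 of at least 10 TPM and 7 of at least 100 TPM, and with the combination these counts were 26, 19 and 6. The cystine carrier SLC7A11 was at 35.3 ± 4.0 TPM, the glutamate carriers SLC1A1 and SLC1A3 at 1.55 ± 0.185 and 0.836 ± 0.480.

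**Figure D1:**
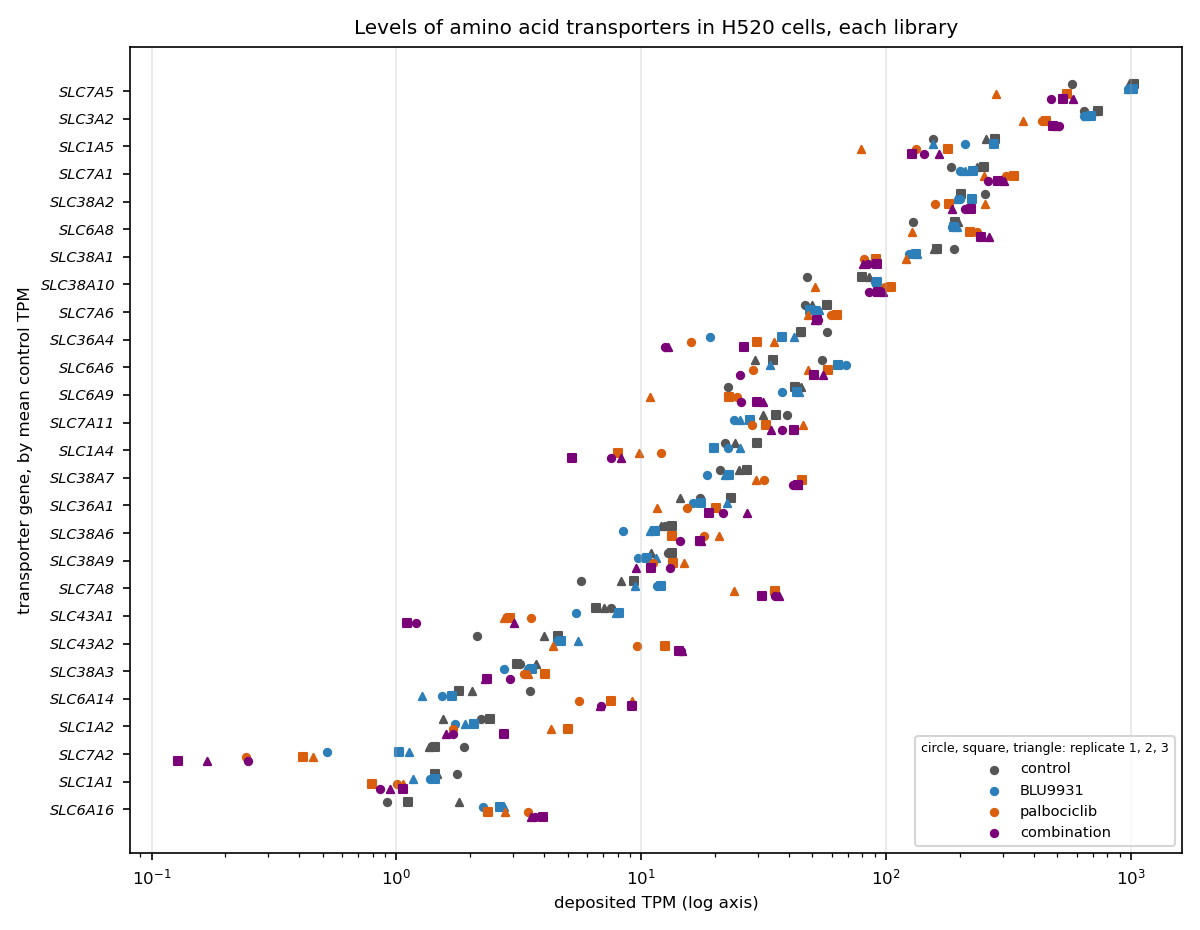
Deposited TPM (log axis) of the 27 transporters with a mean control level of at least 1 TPM, ordered by that mean; each point is a library, coloured by group. SLC7A5 and SLC3A2 lie at the top in control, and the palbociclib and combination points of SLC1A4, SLC43A1 and SLC7A2 lie left of control while those of SLC7A8 and SLC6A14 lie right of it.

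The TPM values of all 59 members together summed to 2512 to 3282 in control, 2927 to 3193 with BLU9931, 1854 to 2485 with palbociclib and 2329 to 2537 with the combination. SLC7A5 and SLC3A2 made up 48.4% to 53.9% of that sum in control and 53.4% to 55.5% with BLU9931. The share was 34.6% to 42.3% with palbociclib and 41.4% to 42.4% with the combination. Every library given palbociclib, alone or in the combination, had a lower share than every control library.

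Tests on the counts used edgeR (quasi-likelihood), with Benjamini-Hochberg adjustment over all genes tested and a threshold of 0.05. Levels from here on are CPM (the count of a gene per 1e6 counts of its library, scaled by TMM and not by gene length), listed in the order of libraries 1, 2 and 3, and changes are log2 fold changes with the standard error (SE) of the fit. BLU9931 alone changed 0 of 39 members by this test, against 0.18% of all genes (0.141% up and 0.0388% down). Of the calls over all genes 78.4% were up, and 50.2% with DESeq2. At an unadjusted p under 0.05 there were 6, and DESeq2 called 1, SLC7A8. Palbociclib alone changed 14 of 39 members, 4 up and 10 down (35.9%), against 20.6% of all genes (10% up and 10.5% down), and the median log2 change was 0.04 in members and 0.01 in all genes. The combination against control changed 17, 8 up and 9 down (43.6%), against 31.7% (15.4% up and 16.3% down), with medians of 0.01 and 0.03. These comparisons share the control libraries. Among the 39 tested, 8 had no library above the filter's level of 0.356 CPM in at least one group and so could pass only through the groups where they are high. Without these 8, palbociclib changed 13 of 31 (4 up, 9 down) and the combination 13 of 31 (5 up, 8 down). Leaving out a single library gave 9 (without control 2) to 16 (without palbociclib 3) calls for palbociclib. With only the control and palbociclib libraries in the fit the count was 6.

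**Figure D2:**
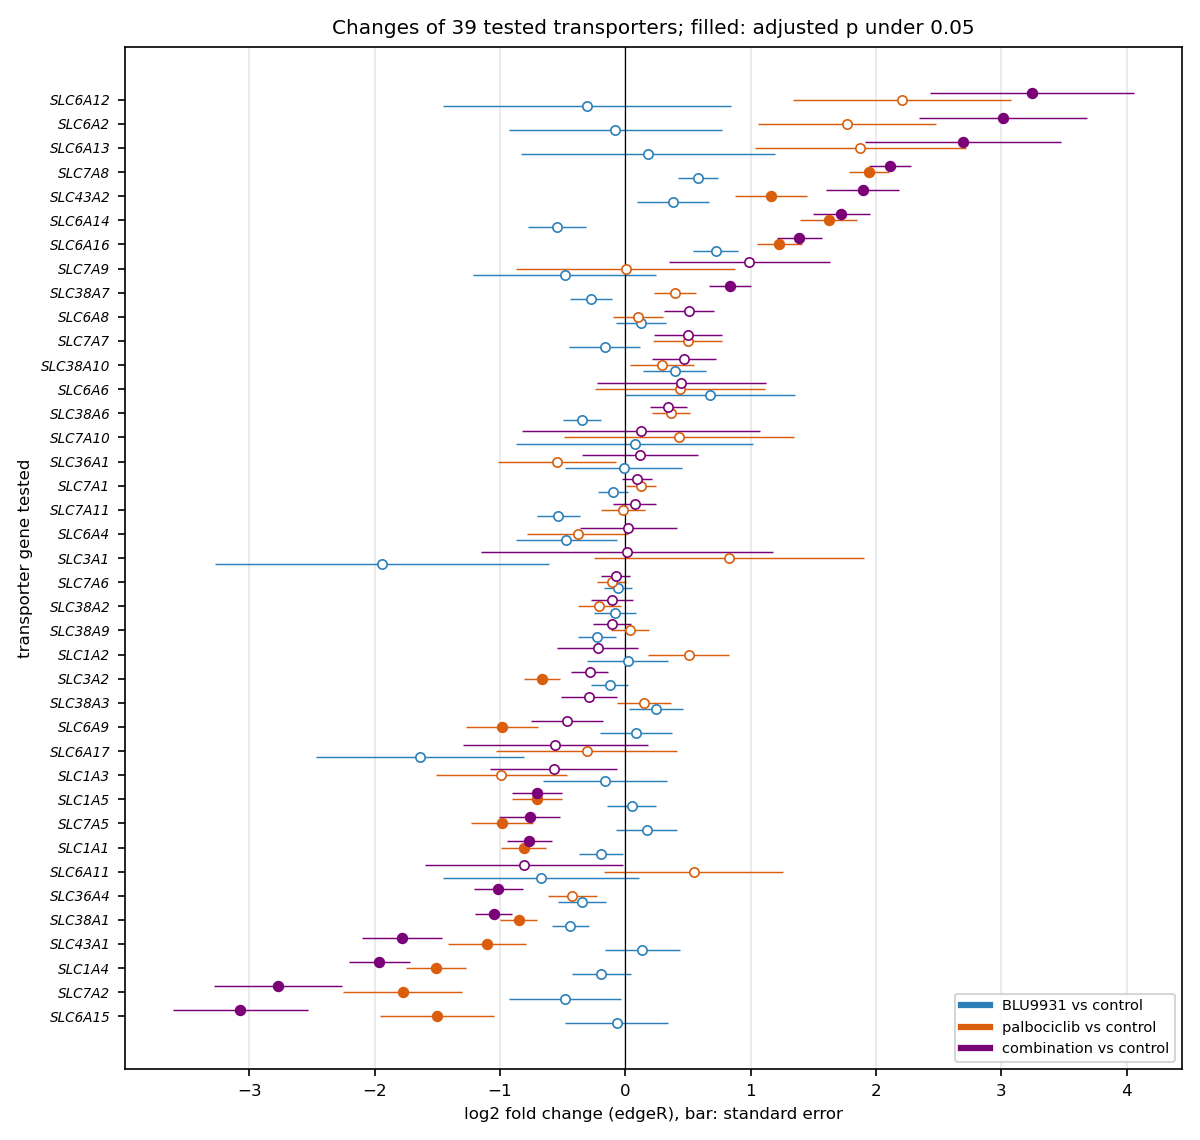
Log2 fold change (x axis, bars are the SE of the fit) of the 39 tested transporters against control for BLU9931, palbociclib and the combination; filled points passed adjusted p 0.05. No BLU9931 point is filled, and SLC7A2 (-2.77) and SLC1A4 (-1.96) lie far left with the combination, as does SLC6A15, whose size is uncertain at 2 to 3 counts.

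Promoter windows were searched for 3 motifs of transcription factors known to act on amino acid carriers, since several members moved together with palbociclib. RefSeq sequences on GRCh38.p14 were found for 44 of the 59 members, as 66 windows of the 250 bases before a transcription start. The E-box CACGTG, the same on both strands, lies in 6.34% of 35116 such windows over all genes, and at least one window of 7.73% of 27305 genes holds it. It occurred in 9 of the 44 members, and in 7 of the 30 tested, SLC36A1 and SLC7A7 included, which passed in no comparison. It was in 3 of the 8 members with a window that fell with palbociclib (SLC1A5, SLC43A1 and SLC7A5) and in 2 of the 4 that rose (SLC6A16 and SLC7A8). The E-boxes of SLC1A5 and SLC7A8 lie inside the gene's span, before an internal transcription start. The element TGATGNAA, bound by C/EBP and ATF proteins and searched on both strands, lies in 3.14% of windows (3.89% of genes) and occurred in 1 of the 8 (SLC1A5) and 0 of the 4. The antioxidant element TGACNNNGC, searched likewise, lies in 10.9% of windows (13.2% of genes) and occurred in 2 of the 8 (SLC1A5 and SLC3A2) and 0 of the 4, and no match overlapped a match of another motif. Of the 30 tested members, TGATGNAA occurred in 2 (SLC1A3 and SLC1A5) and the antioxidant element in 6. The latter include SLC1A3, SLC7A1, SLC7A6 and SLC7A7, which were not called with palbociclib. For SLC1A5 and SLC3A2 the matches of these motifs lie inside the gene's span. A match describes letters and no binding. The stretches before the gene start that hold the E-box, in capitals, are shown for 2 members that fell and 1 that rose. They run 5′ to 3′ on the gene's minus strand, at chr16:87869508-87869757 for SLC7A5, chr11:57515787-57515952 for SLC43A1 and chr19:49325226-49325441 for SLC6A16, and their E-boxes start 130, 112 and 139 bases before the RefSeq start.
SLC7A5: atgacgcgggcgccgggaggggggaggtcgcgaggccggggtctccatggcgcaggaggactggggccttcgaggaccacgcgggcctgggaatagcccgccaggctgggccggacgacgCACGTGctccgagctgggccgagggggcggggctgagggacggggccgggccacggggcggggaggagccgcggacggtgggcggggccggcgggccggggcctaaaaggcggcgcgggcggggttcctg
SLC43A1: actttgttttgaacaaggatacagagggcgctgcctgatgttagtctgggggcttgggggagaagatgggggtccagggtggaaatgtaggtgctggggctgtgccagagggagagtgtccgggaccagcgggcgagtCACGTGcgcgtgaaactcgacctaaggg
SLC6A16: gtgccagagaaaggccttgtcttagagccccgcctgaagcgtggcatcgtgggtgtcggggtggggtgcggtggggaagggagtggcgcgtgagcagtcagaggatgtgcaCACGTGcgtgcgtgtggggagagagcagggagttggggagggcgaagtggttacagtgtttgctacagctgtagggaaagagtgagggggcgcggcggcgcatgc
SLC7A5 and SLC43A1 fell and SLC6A16 rose with palbociclib, so the same letters stand before genes of both directions.

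Of the 2 heavy and 7 light chains tested, SLC3A2 and SLC7A5 fell with palbociclib and SLC7A8 rose. SLC7A5 stood at 1440, 2580 and 2430 CPM in control and at 2370, 2520 and 2360 with BLU9931. With palbociclib it was at 1310, 1270 and 678, and with the combination at 1140, 1250 and 1410. By CPM every palbociclib and combination library lay below every control library, although control 1, one of the 2 that stand apart, is close to them. On the TPM scale combination 3, at 582, lay above control 1, at 573. SLC7A5 fell by 0.99 ± 0.25 (log2, SE; adjusted p = 0.0157) with palbociclib, a 1.98-fold fall, and by 0.76 ± 0.25 (adjusted p = 0.034) with the combination. Without control 1 and palbociclib 3 the falls were -0.98 (adjusted p = 3.55e-05) and -1.0 (adjusted p = 3.95e-06). The palbociclib call ended without control 2 or control 3 (adjusted p = 0.066 and 0.0575) and with only the control and palbociclib libraries fitted (adjusted p = 0.0973), and the combination call passed in 11 of 25 alternatives and ended in 7 of 12 omissions of 1 library (control 2 or 3, BLU9931 2 or 3, or any combination library), with adjusted p between 0.0505 and 0.127. With GC offsets both passed (log2 -1.10 and -0.99). The 2 pseudogenes of SLC7A5 had mean counts of 25.2 and 12.6, and reads may be split between them and the gene.

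SLC3A2 was at 323, 421 and 487 CPM in control, 369, 389 and 370 with BLU9931, 247, 307 and 223 with palbociclib, and 336, 329 and 344 with the combination. By CPM all palbociclib libraries were below all control libraries, and the combination libraries overlapped with control. On the TPM scale the combination did not overlap with control, at 509, 482 and 495 against 642, 732 and 714. The fall with palbociclib was 0.66 ± 0.15 by log2 (adjusted p = 0.00812, edgeR), and the combination against control gave -0.29 (adjusted p = 0.162). That second value was -0.45 (adjusted p = 0.0029) without control 1 and palbociclib 3. The combination value also passed with GC offsets (-0.44, adjusted p = 0.00229) and with limma on log2(TPM + 1) (-0.49, adjusted p = 0.00264). The palbociclib call was lost only when control and palbociclib libraries were fitted alone (adjusted p = 0.0808).

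Among the other light chains SLC7A8 (LAT2; ENSG00000092068, chromosome 14, 23125295 to 23183674, minus strand), a second carrier of large neutral amino acids, went the other way. It stood at 10, 13.0 and 10.8 CPM in control and at 17.6, 16.5 and 16.5 with BLU9931. With palbociclib it was at 49.8, 47.1 and 33.2, and with the combination at 49.6, 46.0 and 50.7. No library of a treated group reached down to control, and those with palbociclib were the highest. SLC7A8 rose by 1.94 ± 0.16 with palbociclib (adjusted p = 2.11e-05, edgeR) and by 2.11 ± 0.16 with the combination (adjusted p = 3.1e-06), folds of 3.85 and 4.32, in all 25 alternatives run. With BLU9931 its value was 0.58 ± 0.16 (adjusted p = 0.162), which passed with GC offsets (0.51, adjusted p = 0.0222) and without the 2 libraries (0.51, adjusted p = 0.0318). By TPM it remained far below SLC7A5, at 7.76 ± 1.90 TPM in control.

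SLC7A11 (ENSG00000151012, chromosome 4, 138164097 to 138242349, minus strand) was at 203, 179 and 160 CPM in control and at 116, 137 and 122 with BLU9931. It was at 146, 154 and 235 with palbociclib and at 194, 208 and 169 with the combination. BLU9931 libraries lay below all others, but the value against control was -0.53 ± 0.17 (adjusted p = 0.211, edgeR). It passed without control 1 and palbociclib 3 (-0.44, adjusted p = 0.0457) and without palbociclib 3 alone (-0.54, adjusted p = 0.0397). Against BLU9931 alone the combination raised it by 0.61 ± 0.17 (adjusted p = 0.0229), and this call ended without BLU9931 1 or 3 or combination 1 or 2 (adjusted p up to 0.0973). An overlapping antisense gene had a mean count of 15.6. Of the 7 light chains tested, 1 rose and 1 fell with palbociclib (28.6%, against 20.6% of all genes), and with the combination the counts were equal (28.6% against 31.7%).

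**Figure D3:**
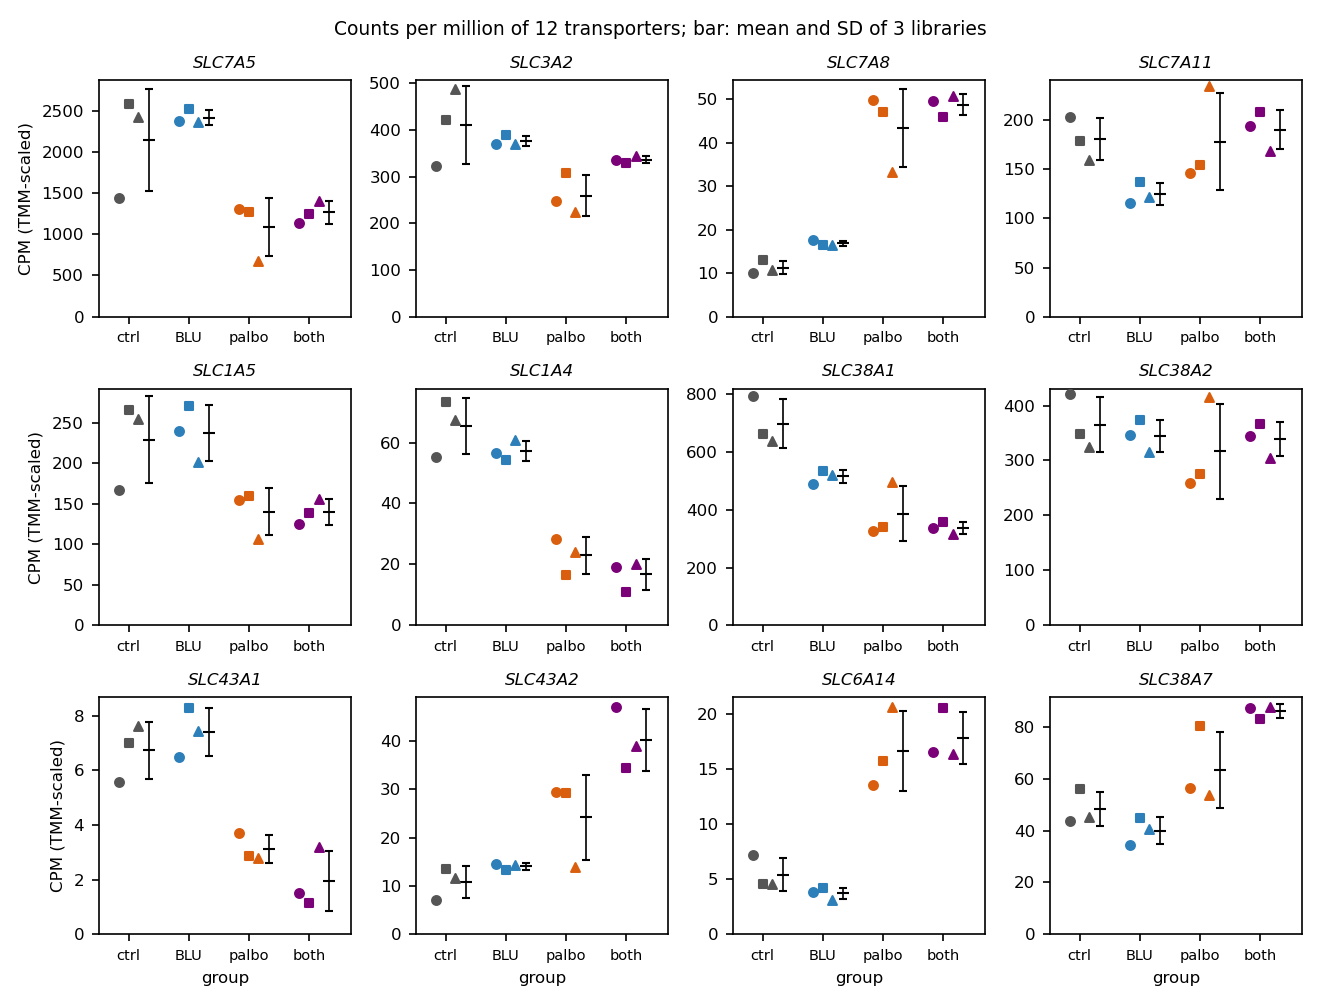
CPM (y axis, from 0) of 12 transporters in each library by group (ctrl, control; BLU, BLU9931; palbo, palbociclib; both, combination); the bar beside each group is the mean and SD of 3 libraries. SLC7A8 and SLC6A14 are high in both groups given palbociclib, SLC1A4, SLC38A1 and SLC43A1 are low there, and SLC38A2 overlaps in all 4 groups.

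Both ASCT exchangers, which carry alanine, serine and cysteine and, in the case of SLC1A5, glutamine, fell with palbociclib. SLC1A4 (ASCT1; ENSG00000115902, chromosome 2, 64988477 to 65023865, plus strand) was at 55.3, 73.2 and 67.5 CPM in control and 56.5, 54.3 and 60.9 with BLU9931. It dropped to 28.3, 16.4 and 24.1 with palbociclib and to 19.2, 11 and 20.1 with the combination. The groups with palbociclib did not overlap with those without it, and the changes were -1.51 ± 0.24 (adjusted p = 0.00128, edgeR) and -1.96 ± 0.25 (adjusted p = 0.000114), passing in all 25 alternatives. SLC1A5 (ASCT2; ENSG00000105281, chromosome 19, 46774883 to 46788594, minus strand) was at 167, 265 and 255 CPM in control, 239, 270 and 201 with BLU9931, 155, 159 and 107 with palbociclib, and 125, 138 and 156 with the combination. By CPM the gap to control was narrow, since control 1 at 167 lay just above the highest palbociclib library at 159. On the TPM scale control 1, at 156, lay below palbociclib 2, at 179, and combination 3, at 165. SLC1A5 fell by 0.71 ± 0.20 with palbociclib (adjusted p = 0.0274) and by 0.71 ± 0.20 with the combination (adjusted p = 0.0184). Each call ended in 4 of 12 omissions of 1 library (control 2 or 3, and palbociclib 1 or 3 or combination 1 or 2), with adjusted p between 0.05 and 0.103, and on log2(TPM + 1) with limma neither passed (adjusted p = 0.0755 and 0.147). The SLC1A5 palbociclib call was also lost with only the compared groups fitted (adjusted p = 0.113) and with library totals in place of TMM (adjusted p = 0.0518). Without control 1 and palbociclib 3 both passed, at -0.74 and -0.91.

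The sodium-coupled glutamine carriers SLC38A1 and SLC38A2 lie near each other on chromosome 12, and only the first was called. SLC38A1 (SNAT1; ENSG00000111371, 46183063 to 46270017, minus strand) was at 794, 664 and 638 CPM in control, 491, 535 and 521 with BLU9931, 325, 340 and 496 with palbociclib and 336, 357 and 317 with the combination. Control was highest and did not overlap with any other group. It fell by 0.85 ± 0.15 with palbociclib (adjusted p = 0.00215, edgeR) and by 1.05 ± 0.15 with the combination (adjusted p = 0.00029), each in all 25 alternatives. With BLU9931 it was -0.44 ± 0.15 (adjusted p = 0.222) and, without the 2 libraries, -0.33 (adjusted p = 0.026). SLC38A2 (SNAT2; ENSG00000134294, 46358189 to 46372867, minus strand) was at 421, 349 and 325 CPM in control and at 344, 367 and 305 with the combination. It did not pass against control with palbociclib (-0.21 ± 0.17, adjusted p = 0.437) or the combination (-0.11 ± 0.17, adjusted p = 0.671), but without the 2 libraries the palbociclib value was -0.35 (adjusted p = 0.0204). The difference between the pair of genes was not tested.

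Of the 4 other SLC38 members tested, which include lysosomal carriers, 1 rose and 0 fell with the combination (25.0%, against 31.7% of all genes), and 0 passed with palbociclib, where 20.6% of all genes did. SLC38A7 (ENSG00000103042, chromosome 16, 58665109 to 58685104, minus strand), a lysosomal carrier of glutamine and asparagine, was at 43.9, 56.1 and 45.3 CPM in control, 56.4, 80.6 and 53.9 with palbociclib, and 87.7, 83.3 and 87.9 with the combination. By CPM the combination libraries were the highest of all 12. On the TPM scale palbociclib 2, at 45.5, lay above the combination libraries, at 41.8, 43.5 and 43.7. SLC38A7 rose by 0.83 ± 0.17 (adjusted p = 0.00291, edgeR) with the combination, and palbociclib gave 0.40 ± 0.17 (adjusted p = 0.121). SLC38A6 was at 8.95 ± 0.72 CPM in control (SD, n = 3), 7.03 ± 0.707 with BLU9931, 11.5 ± 1.56 with palbociclib and 11.3 ± 1.05 with the combination. With the combination it rose against BLU9931 alone (0.69 ± 0.15, adjusted p = 0.0054). Against control neither palbociclib (0.36 ± 0.15, adjusted p = 0.108) nor the combination (0.34 ± 0.15, adjusted p = 0.101) passed. With GC offsets both did (0.485, adjusted p = 0.0184, and 0.499, adjusted p = 0.0124). SLC38A9, the lysosomal arginine sensor of mTORC1, ran from 8.11 to 12.8 CPM over the 12 libraries and passed in no comparison (adjusted p = 0.901 for palbociclib and 0.623 for the combination).

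The carriers SLC43A1 and SLC43A2, which let large neutral amino acids through without exchange, split in direction. SLC43A1 (LAT3; ENSG00000149150, chromosome 11, 57484534 to 57515786, minus strand) was at 5.58, 7.02 and 7.62 CPM in control, 3.72, 2.87 and 2.79 with palbociclib, and 1.5, 1.14 and 3.21 with the combination. SLC43A2 (LAT4; ENSG00000167703, chromosome 17, 1569267 to 1628886, minus strand) was at 7.15, 13.5 and 11.7 CPM in control, 29.4, 29.3 and 14.0 with palbociclib, and 47.1, 34.4 and 39 with the combination. For neither gene did a palbociclib or combination library cross into the control range, and palbociclib 3 was the nearest for SLC43A2. On the TPM scale that library, at 4.35, lay below control 2, at 4.56. SLC43A1 fell by 1.11 ± 0.31 (adjusted p = 0.0263, edgeR) and 1.78 ± 0.32 (adjusted p = 0.00139). SLC43A2 rose by 1.17 ± 0.29 (adjusted p = 0.0146) and 1.89 ± 0.29 (adjusted p = 0.000506). The palbociclib calls were the weaker ones: that of SLC43A1 ended without control 2, control 3 or palbociclib 2 (adjusted p up to 0.0876) and that of SLC43A2 without palbociclib 1 or 2 (adjusted p up to 0.0663) or with only the compared groups fitted (adjusted p = 0.0891), whereas both combination calls passed in all 25 alternatives.

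Of the 5 tested SLC6 carriers of amino acids, 2 rose (SLC6A14 and SLC6A16) and 2 fell (SLC6A9 and SLC6A15) with palbociclib. Of all genes 20.6% were called in that comparison. For SLC6A15 only 1 palbociclib library was above the filter's level of 0.356 CPM, so the size of its fall is uncertain. SLC6A14 (ENSG00000268104, chromosome X, 116436622 to 116461458, plus strand), which takes up neutral and cationic amino acids with sodium and chloride, was at 7.15, 4.50 and 4.53 CPM in control and 3.78, 4.14 and 3.13 with BLU9931. It reached 13.5, 15.7 and 20.6 with palbociclib and 16.5, 20.5 and 16.3 with the combination. The groups with palbociclib lay above all others. The rise was 1.62 ± 0.23 (adjusted p = 0.000525, edgeR) and 1.72 ± 0.23 (adjusted p = 0.00016), a 3.08-fold and a 3.30-fold rise. SLC6A16, an orphan member of the family, was at 1.55 ± 0.222 CPM in control (SD, n = 3), 2.57 ± 0.170 with BLU9931, 3.65 ± 0.557 with palbociclib and 4.08 ± 0.367 with the combination. It rose by 1.23 ± 0.18 (adjusted p = 0.000737) and 1.39 ± 0.18 (adjusted p = 0.000149). With BLU9931 its value was 0.72 ± 0.18 (adjusted p = 0.139, edgeR), which passed with GC offsets (0.71, adjusted p = 0.034).

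The glycine carrier SLC6A9 (ENSG00000196517, chromosome 1, 43991500 to 44031467, minus strand) was at 33.1, 63.6 and 65.0 CPM in control, 34.6, 31.0 and 16.1 with palbociclib, and 35.6, 37.3 and 44.3 with the combination. Control 1 lay within the palbociclib range and below every combination library, while the other two controls lay above both groups. SLC6A9 fell by 0.98 ± 0.29 with palbociclib (adjusted p = 0.0327, edgeR) and gave -0.47 ± 0.29 (adjusted p = 0.244) with the combination, where the value without control 1 and palbociclib 3 was -0.74 (adjusted p = 0.00025). The palbociclib call passed in 11 of 25 alternatives. It ended in 6 of 12 omissions of 1 library (control 2 or 3, BLU9931 2 or 3, palbociclib 2 or combination 2), with adjusted p between 0.0513 and 0.111. CCDC24, on the opposite strand, overlaps the gene over 5029 bases with a mean count of 522, and the use of strand in counting is not given, so its value is uncertain.

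Cationic and acidic carriers were led by SLC7A1 (CAT1), at 685, 918 and 870 CPM in control, 964, 960 and 774 with palbociclib and 822, 890 and 926 with the combination. These ranges overlap, and SLC7A1 passed in no comparison (0.13 ± 0.12 for palbociclib, adjusted p = 0.512). Its relative SLC7A2 (CAT2; ENSG00000003989) had a control level of 1.56 ± 0.283 TPM, where SLC7A1 had 224 ± 35.0 TPM. By CPM it was at 7.97, 1.97 and 5.64 CPM in control, 2.21, 4.24 and 4.68 with BLU9931, 1.01, 1.65 and 1.90 with palbociclib and 1.04, 0.533 and 0.720 with the combination. The control libraries spread widely by CPM, on both sides of the BLU9931 libraries, and all lay above the groups given palbociclib. On the TPM scale control was at 1.88, 1.44 and 1.36, with every library above those of BLU9931 at 0.519, 1.02 and 1.13. SLC7A2 fell by 2.77 ± 0.51 with the combination (adjusted p = 0.00158, edgeR), in all 24 alternatives that tested it. The fall with palbociclib, -1.78 ± 0.47 (adjusted p = 0.0213), ended without control 1, control 3, palbociclib 1 or palbociclib 2 (adjusted p up to 0.0794) and without control 1 and palbociclib 3 together (-1.55, adjusted p = 0.0666). With only the compared groups fitted its adjusted p was 0.0788.

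SLC1A1 (EAAT3), a glutamate, aspartate and cysteine carrier, was at 3.31, 2.98 and 2.97 CPM in control, 1.61, 1.53 and 2.14 with palbociclib and 1.72, 1.81 and 1.90 with the combination. It fell by 0.81 ± 0.18 (adjusted p = 0.00831, edgeR) and by 0.77 ± 0.18 (adjusted p = 0.00694), but on log2(TPM + 1) with limma neither passed (-0.39 with adjusted p = 0.079, and -0.38 with adjusted p = 0.0584). The palbociclib call was also lost with only the compared groups fitted (adjusted p = 0.0651). SPATA6L overlaps it on the opposite strand over 34084 bases with nearly as many counts (53.8 against 65 on average), so reads of the pair may be mixed. SLC1A3 (EAAT1) stayed under 1 CPM in every library and did not pass (-0.99 ± 0.52 for palbociclib, adjusted p = 0.214).

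SLC36A4 (ENSG00000180773, chromosome 11, 93144171 to 93197964, minus strand), of the proton coupled family, was at 73.8, 55.2 and 56.2 CPM in control, 46.2, 45.0 and 54.5 with BLU9931, 37.5, 39.5 and 61.2 with palbociclib, and 30.5, 33.9 and 27.3 with the combination. By CPM combination libraries were the lowest of all 12, while palbociclib 3 lay in the control range. On the TPM scale combination 2, at 26.3, lay above palbociclib 1, at 15.9, and BLU9931 1, at 19.1. There palbociclib 3, at 34.9, lay below every control library (44.4 to 57.4). SLC36A4 fell by 1.01 ± 0.20 with the combination (adjusted p = 0.00229, edgeR), in all 25 alternatives. Palbociclib gave -0.42 ± 0.19 (adjusted p = 0.153) and, without the 2 libraries, -0.55 (adjusted p = 0.00594). The creatine carrier SLC6A8 was at 196, 301 and 310 CPM in control, 345, 317 and 201 with palbociclib and 366, 377 and 406 with the combination. Its combination value, 0.51 ± 0.20, did not pass (adjusted p = 0.0714) but did without the 2 libraries (0.31, adjusted p = 0.00229). The overlapping gene PNCK had a mean count of 237.

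By CPM, SLC6A6, which carries taurine, and SLC36A1, a lysosomal proton coupled carrier, fell into separate levels that did not follow the groups. SLC6A6 was at 150, 49.4 and 46.8 CPM in control, 172, 172 and 50.1 with BLU9931, 42.6, 150 and 141 with palbociclib, and 36.1, 148 and 152 with the combination. SLC36A1 was at 30.6, 43 and 13.5 CPM in control, 37.4, 15.1 and 33.9 with BLU9931, 14.5, 29 and 16.2 with palbociclib, and 39.1, 17.8 and 37.6 with the combination. High and low libraries occurred in every group, and neither gene passed in any comparison. The SE of their palbociclib values was 0.68 and 0.47. On the TPM scale SLC6A6 was at 54.8, 34.6 and 29.1 in control and SLC36A1 at 17.3, 23.2 and 14.4, a narrower spread than by CPM. SLC36A1 showed no separate levels by TPM and ran from 11.6 to 27.0 over all libraries. Its BLU9931 library 1, high by CPM, was at 16.2 TPM, and BLU9931 library 2, low by CPM, at 17.5 TPM.

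**Figure D4:**
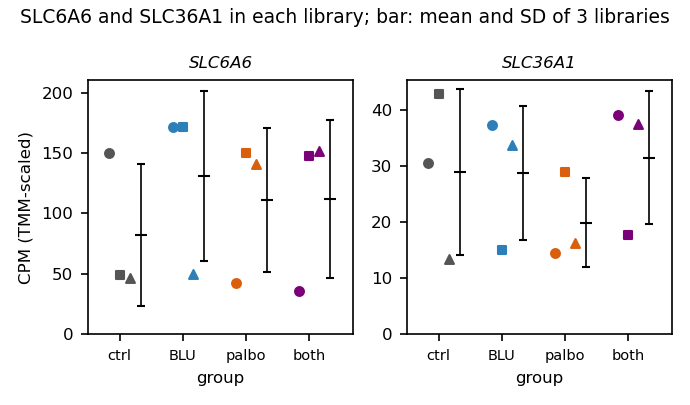
CPM (y axis, from 0) of SLC6A6 and SLC36A1 in each library by group; the bar is the mean and SD of 3 libraries. SLC6A6 lies at 141 to 172 in 7 libraries and at 36.1 to 50.1 in the other 5, with both levels in all 4 groups.

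A few carriers of low level were called as well. The noradrenaline carrier SLC6A2 had 4, 2 and 6 counts in control, 0, 8 and 2 with BLU9931, 18, 13 and 6 with palbociclib and 13, 35 and 43 with the combination. It rose by 3.02 ± 0.67 with the combination (adjusted p = 0.00513, edgeR), in all 21 alternatives that tested it. SLC6A15, SLC6A12 and SLC6A13 were called at under 1 CPM in all groups and are named here after their values were seen. The neutral amino acid carrier SLC6A15 had 16, 26 and 28 counts in control, 4, 4 and 13 with palbociclib and 2, 3 and 2 with the combination, and fell by 1.5 ± 0.46 (adjusted p = 0.0378) and 3.07 ± 0.54 (adjusted p = 0.00118). The betaine and GABA carriers SLC6A12 and SLC6A13 had at most 6 counts in a control library and 9, 23 and 21 and 8, 8 and 15 with the combination (log2 3.25 and 2.69). These 4 are among the 8 that could pass the filter only where they are high, so their sizes are uncertain. The remaining 11 tested members passed in no comparison, with log2 changes between -0.38 and 0.83 for palbociclib and between -0.81 and 0.99 for the combination.

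The combination was also set against each drug alone. Against BLU9931, 19 of 39 members changed (10 up and 9 down, 48.7%), against 27.0% of all genes (13.3% up and 13.7% down). Without the 8 members that had no library above the filter's level in some group, it changed 15 of 31 (7 up, 8 down). SLC7A8 rose (1.53 ± 0.16, adjusted p = 3.66e-05), as did SLC6A14 (2.27 ± 0.23, adjusted p = 3.03e-05), and SLC1A4 (-1.77 ± 0.24, adjusted p = 0.00028) and SLC7A5 (-0.94 ± 0.25, adjusted p = 0.0154) fell by edgeR's test. The call of SLC7A5 ended without combination 1 or 2 (adjusted p up to 0.0654). Leaving out 1 library gave 12 (without combination 1) to 19 calls.

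Against palbociclib, the combination changed 0 of 39 members by edgeR's test, beside 3.82% of all genes (0.917% up and 2.91% down). At an unadjusted p under 0.05 there were 6, and DESeq2 called 0. Among named members the smallest adjusted p belonged to SLC36A4 (-0.59 ± 0.20, adjusted p = 0.147) and SLC38A7 (0.44 ± 0.17, adjusted p = 0.216). SLC3A2 (0.38 ± 0.15, adjusted p = 0.225) and SLC43A2 (0.73 ± 0.28, adjusted p = 0.227) came next. For these and some other members the groups did not overlap by CPM, and the share of all genes that separated in this way was not counted. On the TPM scale the groups did overlap for SLC36A4 and SLC38A7. With GC offsets 4 members passed: SLC36A4 (-0.47), SLC43A2 (0.66), SLC6A8 (0.27) and SLC6A9 (0.43). Without control 1 and palbociclib 3, the single call was SLC38A2 (0.34, adjusted p = 0.0385).

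The interaction tests whether the log2 effect of both drugs differs from the sum of their single effects. It called 0 of 39 members with edgeR, beside 1.59% of all genes (0.281% up and 1.31% down), with 5 at an unadjusted p under 0.05 and 0 by DESeq2. Among named members the smallest adjusted p belonged to SLC38A7 (0.72 ± 0.24, adjusted p = 0.189), SLC7A11 (0.63 ± 0.25, adjusted p = 0.272) and SLC3A2 (0.51 ± 0.21, adjusted p = 0.29). Without control 1 and palbociclib 3 there were 4 calls: SLC7A11 (0.78, adjusted p = 0.00824), SLC3A2 (0.55, adjusted p = 0.0274) and SLC38A1 (0.35, adjusted p = 0.0348) above the sum and SLC7A8 (-0.50, adjusted p = 0.047) below it. With GC offsets SLC7A11 (0.44) and SLC3A2 (0.58) passed too, beside SLC38A7, SLC6A8 and SLC36A4.

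Other genes of amino acid supply gave the setting. Of 24 genes of the ATF4 amino acid response, 2 rose and 10 fell with palbociclib (median log2 -0.48), and 3 rose and 11 fell with the combination (median -0.38), where the median over all genes was 0.01 and 0.03. Of all genes 10.5% fell with palbociclib and 16.3% with the combination. STC2, a secreted glycoprotein, was at 194 CPM in control and 76.1 with palbociclib (-1.35, adjusted p = 8.2e-06, edgeR). The serine synthesis enzymes PSAT1 (-1.11, adjusted p = 0.000339) and PHGDH (-0.83, adjusted p = 0.00128) and the transcription factor CEBPG (-0.97, adjusted p = 0.00112) fell too, and asparagine synthetase ASNS fell by 1.03 with the combination (adjusted p = 0.000692). CHAC1, which breaks down glutathione, was the sole member of that list called with BLU9931 (2.25, adjusted p = 0.0256), from 2.79 ± 0.599 to 13.3 ± 2.08 CPM.

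Of 36 genes of amino acid sensing upstream of mTORC1, 3 rose and 2 fell with palbociclib (13.9%, against 20.6% of all genes), and 7 rose and 2 fell with the combination (25.0% against 31.7%). SESN3, of the Sestrin family, rose by 2.25 with palbociclib (adjusted p = 4.17e-05, edgeR), from 61.1 to 291 CPM. The GTPase gene RRAGA rose by 0.66 (adjusted p = 0.00249), whereas SEH1L fell by 0.81 (adjusted p = 0.00768). Among 19 tested amino acid carriers of other families, 1 rose and 2 fell with palbociclib (15.8%) and 3 rose and 3 fell with the combination (31.6%), neither share above that of all genes. The mitochondrial serine carrier relative SFXN3 rose by 1.03 with the combination (adjusted p = 0.000602), and SFXN2 (-0.58), the ornithine carrier SLC25A15 (-0.62) and the aromatic amino acid carrier SLC16A10 (-0.98) fell.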

How the data were processed

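mRNA libraries of 12 samples, 3 in each of 4 groups taken from the sample titles, were analysed from 1 deposited table. Counts, TPM and FPKM stand side by side per the file headers. How the authors derived the counts is not given in the sources used here. The counts are whole numbers with totals of 21.7 M to 35.8 M per library, and the TPM sum to between 999907 and 999944. Trimmomatic 0.36, HISAT2 2.0, bedtools 2.26.0 and StringTie 1.3.3b are listed per the submitters' processing notes, which name a mouse build, mm9. The gene IDs are human, 57836 of 58174 being in GENCODE 29, so positions are those of the table on GRCh38. No column belonged to a sample outside the series (0 columns).

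Counts kept by filterByExpr were scaled by TMM and fitted with edgeR 4.0.16 (R 4.3.3; glmQLFit, robust, 8 residual degrees of freedom, a term per group over 12 libraries). 6 comparisons were tested two-sided, with Benjamini-Hochberg adjustment over 20612 genes at 0.05. The standard error is the log2 change divided by the root of F. The alternatives used library totals, DESeq2 1.42.0, other filters, the replicate number as a block, offsets for GC content (GENCODE 29, 99.61% of genes), left-out libraries, the compared groups alone, and limma 3.58.1 on log2(TPM + 1), log2(TPM + 0.1) and log2(FPKM + 1). The scripts were tested on simulated counts. Python 3.11.15, pandas 2.3.3, numpy 2.4.6 and matplotlib 3.10.9 made tables and plots.

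Members, role groups and gene lists were chosen with earlier results of these data known. Named were a panel of 16 members, the 8 largest rises and falls per comparison among called members whose mean reached 1 CPM in either group, and the 6 highest by control TPM. In the 3 gene lists up to 4 genes per comparison were named by adjusted p. Not every untested member is reported here by name.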

Additional observations from a re-analysis of the deposited data

How the results depend on the processing

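Of 43 calls of named members, 26 passed in every alternative run and 17 were lost in some, and 29 passed whichever of the 12 libraries was left out. Of 3663 alternative values of single members, 3312 kept direction and side of the threshold, 113 no longer passed and 85 newly passed. Another 152 changed sign without passing in either fit. In 1 more the sign changed and the value passed: SLC6A8 with BLU9931 was -0.23 with GC offsets (0.12 without them). The cause of these shifts was not tested.

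For BLU9931 against control, 0 members were called, but DESeq2 called 1, GC offsets 3, GC offsets with the replicate block 1, and the fit without control 1 and palbociclib 3 called 3. For palbociclib (14), limma on TPM without a filter gave 8 and the compared groups alone gave 6. For the combination against control (17) and against BLU9931 (19), limma on FPKM gave 10 and 12. For the combination against palbociclib (0), GC offsets gave 4, GC offsets with the block 3, and the fit without the 2 libraries 1. For the interaction (0) these gave 5, 5 and 4. Leaving out 1 library at a time gave 0 to 3, 9 to 16, 14 to 19, 0 to 1, 12 to 19 and 0 to 1 calls, in the order BLU9931, palbociclib and combination against control, combination against palbociclib and BLU9931, and interaction.

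Whether the replicate numbers pair the libraries is not settled. The 18 same-number pairs had correlations of deviations between -0.364 and 0.168, 3 of them over 0.1, and 4 of 12 libraries correlated best with their own number. The lowest value involved control 1, which stands apart and correlated at 0.464 with palbociclib 3. The check therefore cannot exclude a shared culture or day. With the replicate block the counts were 0, 12, 16, 0, 16 and 0 in the same order. Carriers under 1 CPM rest on few counts, so a change in them is hard to detect at this depth.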

Other observations

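Some values belong to no comparison. SLC7A5 and SLC3A2 share 1 complex, and their ratio by TPM was 0.893, 1.41 and 1.38 in control libraries 1, 2 and 3 and 1.51, 1.49 and 1.48 with BLU9931. It was 1.25, 1.22 and 0.773 with palbociclib and 0.927, 1.10 and 1.18 with the combination. The lowest ratio of each of the control and palbociclib groups was in control 1 and palbociclib 3, the libraries where genes rich in G and C read low.

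SLC3A1, the heavy chain of the cystine and dibasic amino acid carrier of the kidney, had 50 counts in control 3 and 48 in palbociclib 3 but 1 and 2 in the other control libraries, and 0, 10 and 1 with BLU9931. The other palbociclib libraries had 7 and 18, and the combination libraries 18, 16 and 8. It passed in no comparison. PREPL overlaps it on the opposite strand over 5214 bases with a mean count of 2456. SLC3A1 was singled out here after its values were seen.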
